A study of Homo sapiens with 16 samples.

Results

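USP44, CD24 and TERF1 are 3 of the 28252 genes for which a translation ratio was deposited, and 3 of the 15864 that had a ratio in all 8 cultures. They were chosen by their own translation ratios, with the values in all 8 columns of the table in view, so every difference of these 3 genes is given as a description with no p-value. The translation ratio sets the level of a gene in RNA that sits on RNC, which are ribosomes together with the nascent chain they are making, over its level in total RNA. The cells were H9, an established line of human embryonic stem cells and thus a single genetic background, grown in feeder-free mTeSR1 medium. The 4 groups were cells given an siRNA against OCT4 (siOCT4) at 1% oxygen, cells given the siRNA labelled NC at 1% oxygen, siOCT4 cells at 20% oxygen and NC cells at 20% oxygen. NC is not spelled out in the labels and is taken here as the control siRNA. Each group had 2 cultures, where a culture is a pair of 1 RNA and 1 RNC library with the same label, and 16 libraries made 8 such pairs.

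The RNA and RNC levels behind each ratio are not part of the table, so a difference of the ratio can come from either, and the depth of the libraries is unknown. The knockdown of OCT4 cannot be checked from a ratio, and neither can the share of other cell types. All 10 of the listed pluripotency genes had a ratio in all 8 cultures, as did 3 of 6 fibroblast and stroma genes, 3 of 6 trophectoderm genes and 4 of 4 neuroectoderm genes; this shows that their RNA was detected and gives no level. No label tells if the cultures sharing a group came from separate dishes, so the spread between them may be technical.

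The 3 genes have different roles in the cell. USP44 is a deubiquitinase, an enzyme that removes ubiquitin from proteins: it acts in the spindle checkpoint, which holds back the anaphase-promoting complex until chromosomes are attached, and it removes ubiquitin from histone H2B, as shown in mouse embryonic stem cells. CD24 is a small, heavily glycosylated protein held on the cell surface by a glycosylphosphatidylinositol (GPI) anchor, and it is used as a surface marker of human pluripotent cells. TERF1, also called TRF1, is a subunit of shelterin, the complex that protects telomeres, and binds their double-stranded repeats directly. Its transcript is abundant in mouse pluripotent cells.

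The transcript of CD24 differs from those of the other two in its make-up, and its coding sequence is shown because its base composition is unlike that of the rest of the transcript. The transcript used (GENCODE release 29, assembly GRCh38, chromosome 6) has 2513 bases, of which the coding sequence takes 243 and the 3′ untranslated region 1830. Its coding sequence is among the shortest, at percentile 0.959 of 14185 mRNAs. Capitals mark the codons for serine and threonine, the residues to which O-linked sugars can be attached; they make up 24 of its 80 codons, or 30.0%.
CD24 coding sequence: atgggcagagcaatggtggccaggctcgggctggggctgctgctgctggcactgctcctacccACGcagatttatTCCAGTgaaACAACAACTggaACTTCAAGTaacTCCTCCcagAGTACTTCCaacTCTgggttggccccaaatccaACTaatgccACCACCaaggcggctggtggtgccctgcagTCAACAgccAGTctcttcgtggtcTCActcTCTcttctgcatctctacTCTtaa
The coding sequence of CD24 has a GC content of 54.7% and its 5′ untranslated region one of 74.1%, against 37.9% in the long 3′ untranslated region, which brings the whole transcript to 45.8%. USP44 has a transcript of 4022 bases with a GC content of 38.0%, which is at percentile 6.15 of the genes tested. TERF1 has a short transcript of 1677 bases with 41.6% GC, at percentile 19.4. CD24 sits at percentile 36.7, and the median gene has 49.7% GC and 3100 bases. CD24 and TERF1 both have near-identical processed pseudogenes, and how the reads they share were assigned is not given in the sources used here. The submitters' notes name the assembly hg19, so the transcripts behind the ratios may differ from those described here.

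USP44 had the widest span of ratios of the 3 genes. Its ratio was 7.36 and 5.13 in siOCT4 cells at 1% oxygen, against 0.412 and 0.501 in NC cells at 1% oxygen. At 20% oxygen the ratio of USP44 was 1.62 and 1.90 in siOCT4 cells, against 12.6 and 9.70 in NC cells. The 4 groups did not overlap: NC cells at 20% oxygen were highest, followed by siOCT4 cells at 1%, siOCT4 cells at 20% and NC cells at 1%. The neighbours nearest to overlap were the 2 highest groups, which averaged 6.24 ± 1.58 in siOCT4 cells at 1% oxygen, against 11.1 ± 2.05 in NC cells at 20% oxygen (SD, n = 2 each).

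CD24 followed the same order of groups. Its ratio was 2.69 and 2.86 in siOCT4 cells at 1% oxygen, against 0.324 and 0.373 in NC cells at 1% oxygen. In cells at 20% oxygen CD24 had ratios of 1.61 and 1.59 with siOCT4, against 7.43 and 5.80 with NC. The 2 siOCT4 cultures at 20% oxygen lay close together, at 1.60 ± 0.00869, while the NC cultures at 20% oxygen were more spread, at 6.62 ± 1.15 (SD, n = 2 each). No pair of neighbouring groups overlapped.

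TERF1 had the lowest ratio of the 3 genes in NC cells at 1% oxygen. Its ratio was 2.75 and 3.02 in siOCT4 cells at 1% oxygen, against 0.260 and 0.308 in NC cells at 1% oxygen. At 20% oxygen TERF1 had 1.64 and 1.49 in siOCT4 cells, against 5.95 and 4.15 in NC cells. The order of the groups was again NC at 20%, siOCT4 at 1%, siOCT4 at 20% and NC at 1%, with no overlap.

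**Figure D1:**
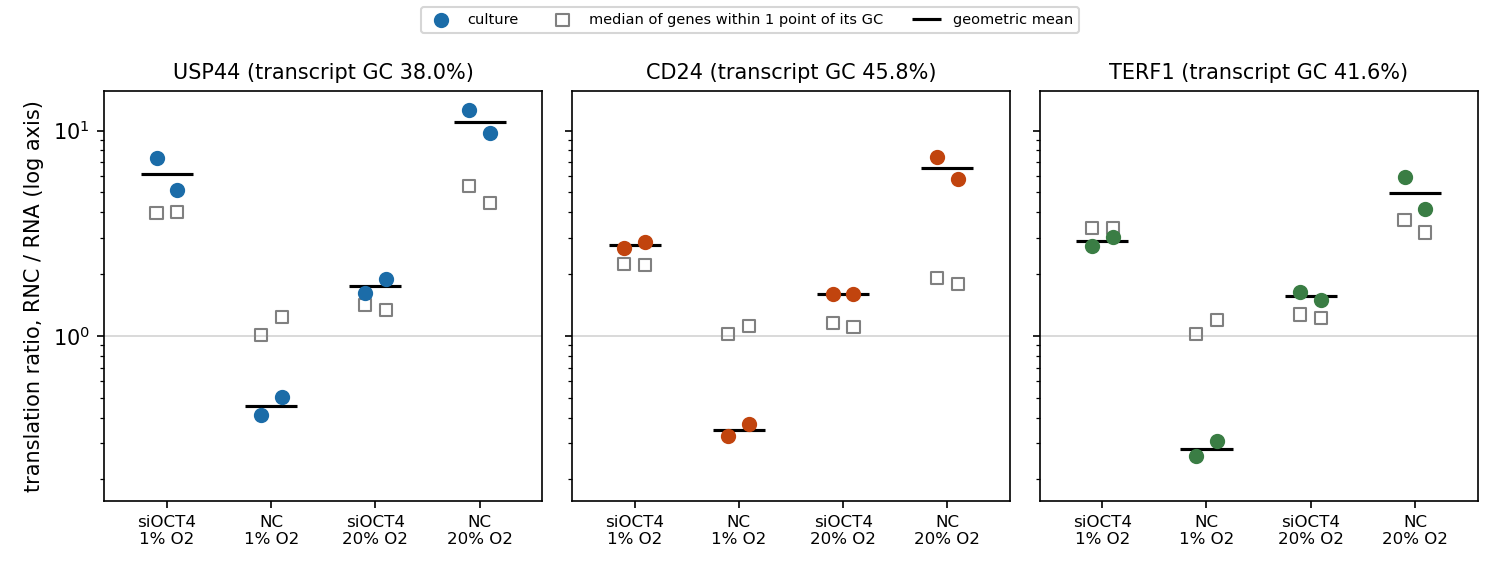
Translation ratio (RNC over RNA, log axis) of USP44, CD24 and TERF1 in the 4 groups. Filled points are the 2 cultures of a group, bars their geometric mean, and open squares the median, in the same culture, of the genes whose transcript GC content is within 1 percentage point. Each gene is lowest in NC cells at 1% oxygen, where USP44 has 0.412 and 0.501, and highest in NC cells at 20% oxygen, where it has 12.6 and 9.70.

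This order of non-overlapping groups was shared by 1270 of the 15864 genes tested (8.01%). It was held by 803 of 3241 genes with a GC content under 42% (24.8%) and by 2 of 3575 with a GC content over 58% (0.0559%). USP44 and TERF1 belong to the first of these classes by their GC content, and CD24 to neither. The order is thus not particular to the 3 genes.

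In NC cells at 1% oxygen the 3 genes were near the bottom of all genes tested. TERF1 was at percentiles 1.57 and 2.69 of the genes in the 2 cultures, CD24 at 2.82 and 4.24, and USP44 at 4.95 and 8.55. In NC cells at 20% oxygen they were near the top: USP44 was at percentiles 99.4 and 99.2, CD24 at 95.0 and 94.5, and TERF1 at 91.1 and 86.9.

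The ratio depended on the GC content of the transcript to a different degree in each group, which bears on all 3 genes. A smooth curve on GC content took up 64.3% and 66.3% of the variance of the log2 ratio between genes in the siOCT4 cultures at 1% oxygen, 0.092% and 10.02% in the NC cultures at 1%, 14.3% and 9.31% in the siOCT4 cultures at 20%, and 71.8% and 65.1% in the NC cultures at 20%. Genes poor in GC had high ratios where the dependence was strong. The share of each gene's difference that moves with GC content is given beside it below, from a correction that kept only the distance of each log2 ratio from the curve of its culture. Whether the dependence arose in the cells or in making and sequencing the libraries was not tested.

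**Figure D2:**
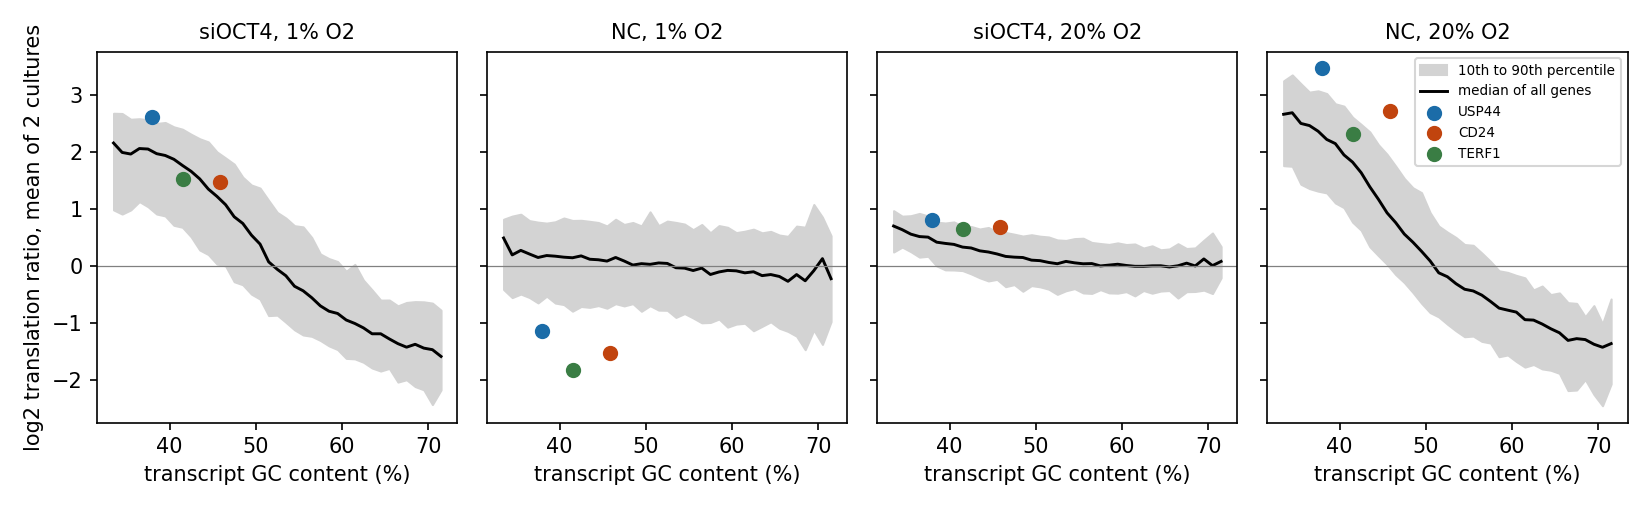
Transcript GC content (%) against the log2 translation ratio (mean of 2 cultures) in the 4 groups. The line is the median and the grey band the 10th to 90th percentile of the genes in each GC class 1 percentage point wide, and points are the 3 genes. In NC cells at 1% oxygen the median is nearly flat and all 3 genes lie under the band, whereas in NC cells at 20% oxygen USP44 and CD24 lie above it and TERF1 inside it.

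Set against genes of like GC content, all 3 genes were low in NC cells at 1% oxygen. TERF1 had 0.253 and 0.257 times the median ratio of the 1269 genes within 1 percentage point of its GC content. CD24 had 0.317 and 0.335 times the median of 1138 such genes, and USP44 0.408 and 0.406 times that of 879. In each case both cultures gave nearly the same value, although the ratios themselves differed more between the cultures.

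In NC cells at 20% oxygen the order of the 3 genes by this measure was another one. CD24 had 3.90 and 3.26 times the median of its GC neighbours, USP44 2.35 and 2.18 times, and TERF1 1.62 and 1.30 times. CD24 was further from its GC neighbours here than in NC cells at 1% oxygen, and USP44 and TERF1 were nearer. In siOCT4 cells all 3 genes were nearer to their GC neighbours than in NC cells at 1% oxygen. At 1% oxygen the multiples were 1.85 and 1.28 for USP44, 1.20 and 1.29 for CD24 and 0.821 and 0.902 for TERF1, and at 20% oxygen 1.15 and 1.42 for USP44, 1.39 and 1.44 for CD24 and 1.29 and 1.21 for TERF1.

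The comparison of 1% with 20% oxygen in NC cells asks how low oxygen changes ribosome association when OCT4 is not targeted, and it held the largest differences of the 3 genes. The ratio of USP44 was 24.3-fold lower at 1% than at 20% oxygen, a log2 difference of -4.60 ± 0.25 (SE from limma, n = 2 per group). CD24 was 18.9-fold lower, with a log2 difference of -4.24 ± 0.17, and TERF1 was 17.6-fold lower, with -4.14 ± 0.21. Only 31, 63 and 74 of all genes tested lay further down than USP44, CD24 and TERF1 in this comparison. The median gene had a log2 difference of -0.31.

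With the dependence on GC content taken out, these differences became smaller and kept their direction. CD24 was then the gene with the largest drop, a log2 difference of -3.38 or 10.4-fold, followed by USP44 with -2.51 or 5.71-fold and TERF1 with -2.48 or 5.59-fold. The genes within 1 percentage point of the GC content of USP44 had a median log2 difference of -2.11 in the same comparison, those near TERF1 -1.68 and those near CD24 -0.77. CD24 thus lost the least to the correction, and USP44 and TERF1 lost more.

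The oxygen difference in siOCT4 cells was smaller and ran the other way. The ratio of USP44 was 3.50-fold higher at 1% than at 20% oxygen, with a log2 difference of 1.81 ± 0.25. TERF1 was 1.84-fold higher, with 0.88 ± 0.21, and CD24 1.73-fold higher, with 0.79 ± 0.17. The median of all genes was 0.27 in this comparison. After GC correction USP44 had a log2 difference of 0.40 ± 0.21, while CD24 had -0.098 ± 0.13 and TERF1 -0.42 ± 0.13 (SE). The GC-corrected log2 ratios of USP44 overlapped, at 1.03 and 0.47 at 1% oxygen and 0.21 and 0.50 at 20%. With transcript length corrected as well, CD24 had -0.0049 and TERF1 0.031. No direction is therefore read for any of the 3 genes once GC content is taken out. Genes of like GC content had medians of 1.55 near USP44, 0.99 near CD24 and 1.44 near TERF1.

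The comparison of siOCT4 with NC cells at 1% oxygen asks what targeting OCT4 does under low oxygen. The ratio of USP44 was 13.5-fold higher in siOCT4 than in NC cells, with a log2 difference of 3.76 ± 0.25. TERF1 was 10.2-fold higher, with 3.35 ± 0.21, and CD24 7.96-fold higher, with 2.99 ± 0.17. The median gene had 0.42. With GC content taken out the 3 differences were close to each other, at 2.02 for USP44, 1.98 for CD24 and 1.81 for TERF1, or 4.06-fold, 3.94-fold and 3.51-fold.

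At 20% oxygen the same siRNA comparison gave the opposite direction in all 3 genes. The ratio of USP44 was 6.31-fold lower in siOCT4 than in NC cells, a log2 difference of -2.66 ± 0.25. CD24 was 4.10-fold lower, with -2.04 ± 0.17, and TERF1 3.18-fold lower, with -1.67 ± 0.21. The median gene had -0.09. The GC correction left -1.30 for CD24, or 2.47-fold, and -0.89 for USP44, or 1.85-fold. TERF1 was left with -0.25, or 1.19-fold, and its uncorrected difference was close to the median of -1.52 of its GC neighbours.

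**Figure D3:**
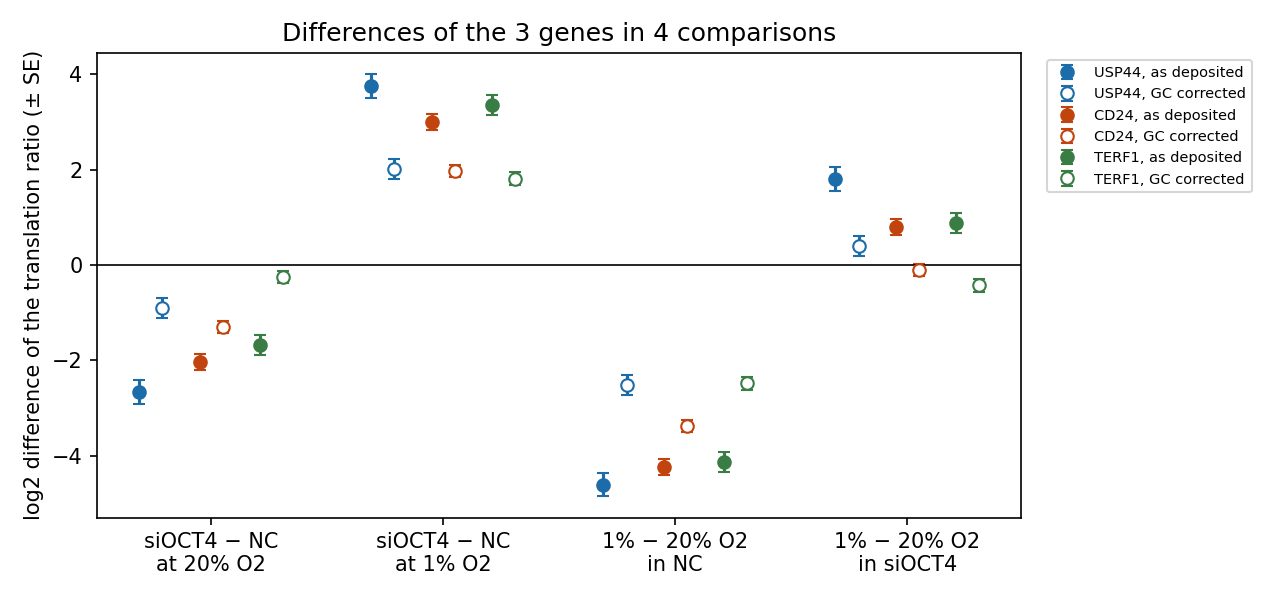
Log2 differences of the translation ratio (± SE) of the 3 genes in 4 comparisons. Filled points are the deposited ratios and open points the ratios after correction for transcript GC content. In NC cells all 3 genes are lower at 1% than at 20% oxygen by both measures, with -3.38 for CD24 after correction, while the corrected oxygen differences of siOCT4 cells lie between -0.42 and 0.40.

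The log2 difference of siOCT4 over NC cells thus changed sign between the oxygen levels. Its value at 1% minus that at 20% oxygen was 6.41 ± 0.35 for USP44, 5.03 ± 0.24 for CD24 and 5.02 ± 0.30 for TERF1. After GC correction it was 2.91 for USP44, 3.28 for CD24 and 2.06 for TERF1. These values combine the 4 groups and rest on the same cultures as the single comparisons.

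The 3 genes differed from each other in level as well as in span. The ratio of USP44 was 1.27 and 1.34 times that of CD24 in NC cells at 1% oxygen, against 1.70 and 1.67 times in NC cells at 20% oxygen. In siOCT4 cells at 1% oxygen USP44 was 2.74 and 1.79 times CD24, while CD24 was 0.976 and 0.945 times TERF1. In siOCT4 cells at 20% oxygen USP44 was nearer to CD24, at 1.01 and 1.19 times, and CD24 was 0.977 and 1.07 times TERF1.

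The genes whose pattern over the 8 cultures was most like that of each of the 3 were sought among 8087 genes with no ratio that recurs in several genes of a culture. Pearson's r of the log2 ratios is given as a description, since the 8 points fall into 4 groups and share the libraries and their dependence on GC content. USP44 was most like NECTIN3, VASH2, ADGRL2, FAM220A and ATP2B1, with r = 0.997 for NECTIN3, a cell adhesion molecule. The geometric mean ratio of NECTIN3 was 4.76 in siOCT4 cells and 0.447 in NC cells at 1% oxygen, and 1.52 in siOCT4 cells and 10.4 in NC cells at 20% oxygen.

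CD24 was most like TDGF1, PCNA (the sliding clamp of DNA replication), FAM136A, VKORC1L1 and APELA. TDGF1 (CRIPTO), a GPI-anchored co-receptor for NODAL and a marker of pluripotent cells, had r = 0.999 with a smaller span. Its geometric mean ratio was 2.26 in siOCT4 cells and 0.491 in NC cells at 1% oxygen, and 1.48 in siOCT4 cells and 4.01 in NC cells at 20% oxygen. TERF1 was most like PXYLP1, APELA, KRIT1, CCNB1 and TDGF1, so that APELA, which encodes a peptide hormone of early embryos, and TDGF1 stood in the lists of both CD24 and TERF1. APELA had a wider span than any of the 3 genes: its geometric mean ratio was 4.06 in siOCT4 cells and 0.0710 in NC cells at 1% oxygen, and 1.72 in siOCT4 cells and 15.3 in NC cells at 20% oxygen.

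Among themselves CD24 and TERF1 were most alike, with r = 0.992, against 0.978 for USP44 with CD24 and 0.974 for USP44 with TERF1. TERF1 was the 13th most similar gene to CD24, and CD24 the 9th to TERF1. An r over 0.95 was reached by 785 of the genes searched with USP44 (9.71%), 322 with CD24 (3.98%) and 269 with TERF1 (3.33%).

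Genes related to TERF1, USP44 and CD24 by complex, pathway or use as a surface marker were read from 3 lists. The lists held 98 genes, 96 of which had a ratio in all cultures. They were tested with limma over all 15864 genes, and the number called is set beside the share of all genes called in the same direction. In NC cells, 1% against 20% oxygen, 20.5% of all genes were called higher and 39.6% lower. Of 26 telomere genes 7 rose and 8 fell, with a median log2 difference of 0.02. The 43 genes of the spindle checkpoint, the anaphase-promoting complex, H2B ubiquitination and the N-CoR complex are called the partners of USP44 for short. The name does not mean that each of them binds or acts with USP44. Of these 43 genes 7 rose and 29 fell, with a median of -1.16. Of 27 surface and GPI anchor genes, 20 of them listed as surface markers of pluripotent cells, 5 rose and 17 fell, with a median of -0.76. After GC correction the medians were 0.10, -0.27 and -0.43, against 0.01 for all genes.

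Among the other shelterin genes only POT1, which binds the single-stranded telomere end, shared the direction of TERF1 in all 4 comparisons before GC correction. It did not have the group order of TERF1, since NC cells at 1% oxygen overlapped siOCT4 cells at 20%. POT1 had 3.97 and 5.15 in siOCT4 cells and 1.68 and 2.05 in NC cells at 1% oxygen, and 1.80 and 1.67 in siOCT4 cells and 7.90 and 7.91 in NC cells at 20% oxygen. It fell in NC cells at 1% against 20% oxygen (log2 difference -2.09, adjusted p = 0.000364). Its transcript has 37.6% GC, and after GC correction the difference was 0.03 (adjusted p = 0.895), against -2.48 for TERF1.

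TERF2, the paralog of TERF1 that also binds double-stranded repeats, went the other way in NC cells. Its ratio was 1.70 and 1.72 at 1% oxygen, against 0.972 and 0.775 at 20% oxygen (log2 difference 0.98, adjusted p = 0.00297), and the GC-corrected difference was 0.99. TERF2IP, the partner of TERF2, also rose, by 0.87 on the log2 scale (adjusted p = 0.00229). TINF2 and ACD, which bridge the DNA-binding subunits, had -0.05 and 0.24 and did not pass (adjusted p = 0.747 and 0.395). TERF2, TERF2IP, TINF2 and ACD are named here to complete the complex, after their values were seen.

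Of the other telomere genes TNKS2, a tankyrase that releases TERF1 from telomeres, BLM, a helicase, and ATRX, a chromatin remodeller, fell most in NC cells at 1% oxygen. TNKS2 had ratios of 0.868 and 1.07 at 1% oxygen, against 5.99 and 4.59 at 20% oxygen (log2 difference -2.44, adjusted p = 0.000242). BLM had a log2 difference of -2.32 and ATRX one of -2.24. After GC correction TNKS2 was left with -0.94, BLM with -0.61 and ATRX with -0.05, and the call of ATRX was lost (adjusted p = 0.733).

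The partners of USP44 that fell most in that comparison were BUB1B, TTK and ANAPC4. BUB1B and TTK act in the spindle checkpoint, and ANAPC4 is a subunit of the anaphase-promoting complex. BUB1B had 0.448 and 0.518 at 1% oxygen, against 3.36 and 3.30 at 20% oxygen (log2 difference -2.79, adjusted p = 0.000155). TTK also had -2.79 and ANAPC4 -2.74. The GC-corrected differences were -1.42 for BUB1B and -0.58 for TTK, and that of TTK did not pass (adjusted p = 0.055). USP49, the closest relative of USP44, fell as well (log2 difference -1.88, adjusted p = 0.000217), with -0.92 after GC correction. USP22, another deubiquitinase of H2B, rose (log2 difference 0.83, adjusted p = 0.00203), with 0.60 after GC correction. USP49 and USP22 are named after their values were seen.

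Among the surface genes ITGA6, an integrin and stem cell marker, came nearest to CD24 in the size of this 1 difference. ITGA6 had ratios of 0.299 and 0.354 at 1% oxygen, against 5.49 and 4.74 at 20% oxygen in NC cells (log2 difference -3.97, adjusted p = 0.000152), and -2.54 after GC correction. The adhesion molecule ALCAM had -3.08, with -1.15 after correction, and TDGF1 -3.03, with -1.80 after correction.

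**Figure D4:**
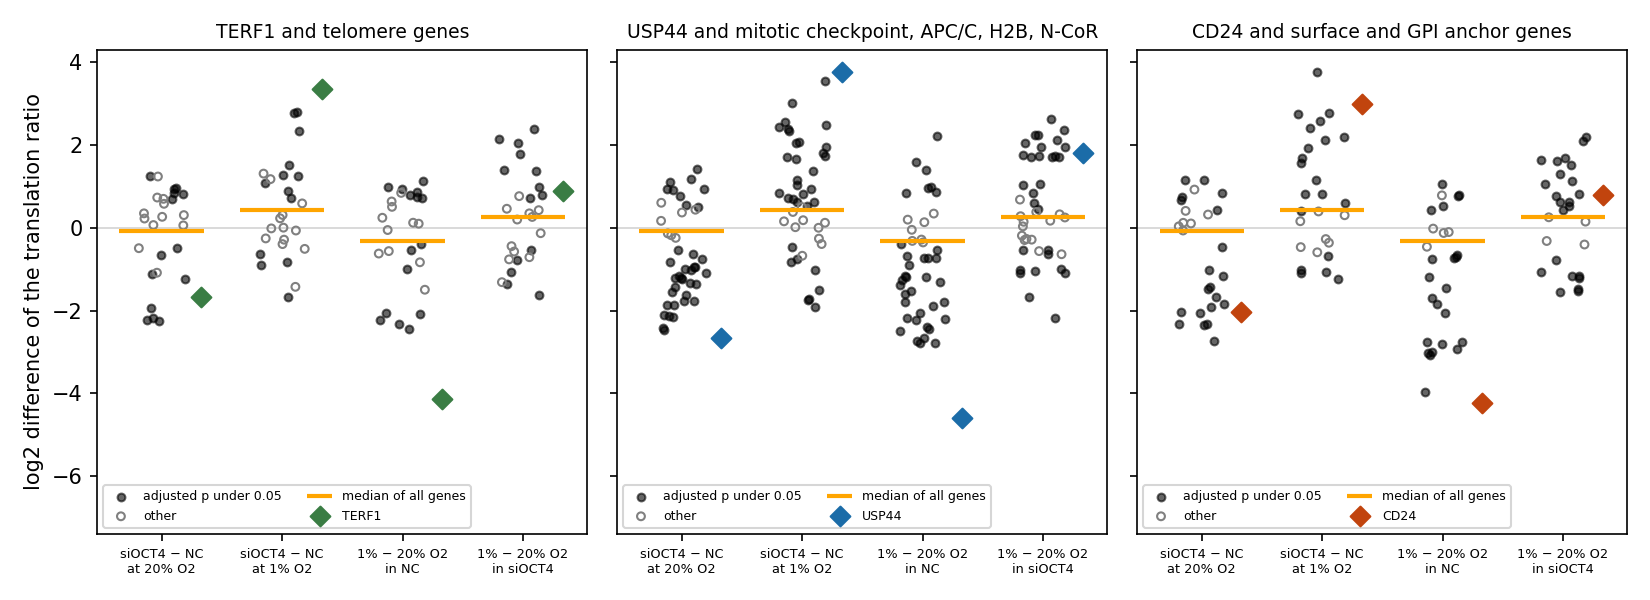
Log2 differences of the translation ratio of the listed genes (points, black where the limma adjusted p was under 0.05) in 4 comparisons, with TERF1, USP44 and CD24 (diamonds) beside the list of each and the median of all genes as a bar. In NC cells at 1% against 20% oxygen each of the 3 genes lies below every gene of its list, and the lowest listed gene is ITGA6 with -3.97.

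In the comparison of siOCT4 with NC cells at 20% oxygen 19.2% of all genes were called higher and 34.1% lower. Of the telomere genes 6 rose and 8 fell, of the partners of USP44 9 rose and 27 fell, and of the surface and GPI anchor genes 6 rose and 14 fell. The medians were 0.25, -0.94 and -0.47, and 0.03, -0.14 and -0.12 after GC correction, against -0.03 for all genes. The listed genes that fell most in each list were PIGK, the catalytic subunit that attaches GPI anchors (log2 difference -2.73), TBL1XR1 of the N-CoR complex (-2.48), CDC27 of the anaphase-promoting complex (-2.42), PIGA, which starts GPI anchor synthesis (-2.35), ITGB1, an integrin (-2.32), and TNKS2 (-2.26). ITGA6 also had -2.32 and was the next surface gene after ITGB1. NEK7, a mitotic kinase, had -2.23, POT1 -2.19 and FBXO5, an inhibitor of the anaphase-promoting complex, -2.17. After GC correction TNKS2 had -0.97, PIGK -0.83, ITGB1 -0.72 and TBL1XR1 -0.57, whereas the calls of PIGA, CDC27, POT1, FBXO5 and NEK7 were lost, with adjusted p between 0.0566 and 0.286.

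At 1% oxygen 41.1% of all genes were called higher in siOCT4 than in NC cells and 19.9% lower. Of the telomere genes 9 rose and 4 fell, of the partners of USP44 25 rose and 8 fell, and of the surface and GPI anchor genes 15 rose and 5 fell, with medians of 0.27, 0.70 and 0.59, the first of them under the 0.42 of all genes, and GC-corrected medians of 0.05, 0.04 and -0.05. With each culture centred on its own median, the calls among the 96 genes were 38 higher and 29 lower, and with GC correction 28 higher and 27 lower, against 49 and 17 as deposited. ITGA6 rose most, with ratios of 4.73 and 4.10 in siOCT4 cells, against 0.299 and 0.354 in NC cells (log2 difference 3.76, adjusted p = 0.000303). BUB1B had a log2 difference of 3.55, TTK 3.01, ATRX 2.79, ALCAM and BLM 2.78, BUB1, another checkpoint gene, 2.57 and TNKS2 2.33. All of these passed after GC correction as well, with 2.35 for ITGA6 and 2.18 for BUB1B at the upper end and 0.88 for TNKS2 at the lower. SIGLEC10, a receptor for CD24 on immune cells, had a log2 difference of 2.76, but 7 of its 8 ratios recur in other genes of the culture, which happens at small read numbers.

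In siOCT4 cells at 1% against 20% oxygen 37.4% of all genes were called higher and 21.6% lower. Of the telomere genes 9 rose and 5 fell, of the partners of USP44 19 rose and 10 fell, and of the surface and GPI anchor genes 15 rose and 8 fell, with medians of 0.31, 0.33 and 0.52 and GC-corrected medians of 0.15, -0.06 and -0.32. With median centring the calls were 36 higher and 34 lower, and with GC correction 22 higher and 29 lower, against 43 and 23 as deposited. BUB1B rose by 2.63 on the log2 scale, BLM by 2.39, TTK by 2.37, TBL1XR1 by 2.25, PIGA by 2.20, TNKS2 by 2.14, ITGA6 by 2.11, TNKS, the other tankyrase, by 2.05 and CD46, a complement regulator, by 1.70. Each of these log2 differences was larger than those of CD24 and TERF1 in the same comparison, which were 0.79 and 0.88. CD46 lost its call after GC correction.

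The order of groups seen in USP44, CD24 and TERF1 was found in 12 of the 96 listed genes (12.5%): in 0 of 26 telomere genes, 6 of 43 partners of USP44 and 6 of 27 surface and GPI anchor genes, against 8.01% of all genes. The surface genes TDGF1 and ITGA6 both had it, with gaps of different size between the 2 highest groups. TDGF1 had 2.20 and 2.32 in siOCT4 cells at 1% oxygen, against 4.51 and 3.56 in NC cells at 20% oxygen, well apart, as in CD24. ITGA6 had 4.73 and 4.10 in siOCT4 cells at 1% oxygen, against 5.49 and 4.74 in NC cells at 20% oxygen, with almost no gap between the groups.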

How the data were processed

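The authors deposited 1 table with, per culture, the translation ratio, a linear ratio of the RNC over the RNA level of each gene. The submitters' processing notes name edgeR and hg19; aligner, annotation and filters were not given in these sources. Columns with "sO" in their name were taken as siOCT4. The log2 ratio of 15864 genes was fitted with limma 3.58.1 (R 4.3.3; trend and robust settings, 4 group means, 4 residual degrees of freedom), with two-sided tests adjusted over all genes by Benjamini-Hochberg at a threshold of 0.05, and tested on simulated data. The fit gave the SE of the 3 genes, with no p-value. GC content came from 1 GENCODE 29 transcript per gene (GRCh38, no coordinates used) for 15261 genes (96.20%), and its correction took the residual from a spline with 6 degrees of freedom per culture. A ratio was called recurrent where at least 3 genes of a culture shared it within a relative tolerance of 2e-06; USP44, CD24 and TERF1 had none. Genes named are the 3 genes, the 5 most similar to each, and up to 3 called genes per list and comparison with the largest change. The 3 genes and the lists were chosen with earlier results of these data known. Alternatives were GC, GC and length, median centring, a pseudocount of 0.1, limma without trend and robust settings, only genes without recurrent ratios, a replicate block and leaving out each culture. Depth is unknown, so no counting intervals were made. Figures used matplotlib 3.10.9.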

Additional observations from a re-analysis of the deposited data

Results flagged for a closer look

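In USP44, CD24 and TERF1 both siOCT4 cultures lay above both NC cultures at 1% oxygen and below both at 20% oxygen. The same held for 51 of the 96 listed genes tested, and the opposite, lower at 1% and higher at 20% oxygen, for 26. The share of all genes with either pattern was not counted, so these numbers are not read as a trait of the lists. Of the 27 listed genes named above 21 had the first pattern and 4 the second. These 27 were named for large changes in the same data or after their values were seen. Their count thus follows in part from that choice and lends the pattern no weight. The values below are the log2 difference of siOCT4 over NC at 1% oxygen minus that at 20% oxygen. No p-value was taken for this difference, so the difference was not tested. The value was 6.41 for USP44, 5.03 for CD24 and 5.02 for TERF1, and 2.91, 3.28 and 2.06 after GC correction.

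Among the telomere genes it was 4.71 for BLM, 4.59 for TNKS2, 4.02 for ATRX, 3.48 for NEK7, 3.47 for POT1 and 2.61 for TNKS, against -1.32 for ACD, -0.55 for TERF2 and -0.48 for TINF2. Among the partners of USP44 it was 5.41 for BUB1B, 5.15 for TTK, 4.90 for CDC27, 4.45 for ANAPC4, 4.43 for TBL1XR1, 4.34 for BUB1, 4.22 for FBXO5 and 3.62 for USP49, against -1.02 for USP22. Among the surface and GPI anchor genes it was 6.08 for ITGA6, 4.69 for ALCAM, 4.45 for ITGB1, 4.03 for PIGA, 3.89 for PIGK, 3.76 for CD46 and 3.64 for TDGF1.

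After GC correction the log2 differences at the 2 oxygen levels had opposite signs in 19 of these 25 listed genes. This counts signs whatever their size: CD46 had 0.19 at 1% and -0.091 at 20% oxygen, and TINF2 0.0039 and -0.26. The log2 differences had the same sign in 6, which were ATRX (0.43), NEK7 (-0.16), PIGA (0.55), PIGK (0.23), POT1 (-0.06) and TNKS (0.087), with the GC-corrected value in parentheses. In ACD and TINF2 both signs turned, with GC-corrected values of 0.77 and 0.26. The part of the dependence on GC content in these values was not tested beyond that correction.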

How the results depend on the processing

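The GC-corrected log2 differences of siOCT4 over NC at 20% oxygen were -0.89 for USP44, -1.30 for CD24 and -0.25 for TERF1, and with length also corrected -0.85, -1.31 and -0.24. At 1% oxygen they were 2.02, 1.98 and 1.81, and with length 2.02, 2.07 and 2.23. For 1% over 20% oxygen in NC cells they were -2.51, -3.38 and -2.48, and with length -2.48, -3.39 and -2.44. In siOCT4 cells USP44 had 0.40 ± 0.21 (SE), and 0.39 with length. There CD24 turned to -0.098, and -0.0049 with length, and TERF1 turned to -0.42, but had 0.031 with length. Median centring gave 3.37 for USP44, 2.61 for CD24 and 2.97 for TERF1 for siOCT4 over NC at 1% oxygen, and 0.53 for CD24 and 0.62 for TERF1 for oxygen in siOCT4 cells. A pseudocount of 0.1 gave 2.68 for CD24 and 2.96 for TERF1 for siOCT4 over NC at 1% oxygen, and -4.33 for USP44, -3.89 for CD24 and -3.73 for TERF1 for oxygen in NC cells.

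For siOCT4 over NC at 20% oxygen, GC correction gave 2245 called genes, against 8450, and 17 of the listed genes, against 70; the cause was not tested. For oxygen in siOCT4 cells it gave 5655 called genes, against 9362. Without genes with a recurrent ratio, the calls numbered 6422, against 9672, for siOCT4 over NC at 1% oxygen and 6230, against 9545, for oxygen in NC cells; fewer genes were tested there, 8087 in place of 15864. Leaving out 1 culture at a time gave 5063 to 9244 genes for siOCT4 over NC at 20% oxygen, with 5389 without siOCT4 culture 1 and 5063 without siOCT4 culture 2. The lone culture of a group was then assumed to vary like the others. For the 3 genes such fits, with 2 cultures per group, shift a value by no more than the spread of the cultures already fixes, so they show nothing about its stability. Of the calls of all genes, 67.4% were higher for siOCT4 over NC at 1% oxygen and 63.4% for oxygen in siOCT4 cells, against 52.7% and 51.9% with median centring. After GC correction 48.9% to 51.2% were higher in the 4 comparisons.

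The replicate numbers are shared by the groups, and no label tells whether they pair the cultures. Deviations from the group means correlated by -0.233 to 0.023 between groups. Such a correlation over genes shows only how alike the deviations were. It cannot decide whether cultures with the same number were handled together. A fit with the replicate number as a block gave 7354, 9063, 8885 and 8613 genes for siOCT4 over NC at 20% and 1% oxygen and for oxygen in NC and siOCT4 cells.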
